A study of Drosophila melanogaster with 2 samples.

Results

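The genes described here are 6 genes that set or mark the temporal identity of Kenyon cells: chinmo, mamo, ab, Imp, Syp and lin-28. They were taken by symbol from the Ensembl annotation of the BDGP6 (dm6) assembly and are 6 of the 13968 protein-coding genes on the main chromosomes. Kenyon cells are the principal neurons of the mushroom body (MB), the centre of olfactory memory in the fly brain. A small set of neuroblasts produces them in sequence, γ neurons first, then α'β' and last αβ neurons. In these neuroblasts the RNA-binding protein Imp falls and the RNA-binding protein Syp rises with time, and this pair controls how much of the transcription factor Chinmo the newborn neurons make. Mamo and Ab are transcription factors of the same BTB zinc finger family. Lin-28 is known, mainly from worms and mammals, as an RNA-binding protein that blocks maturation of the microRNA let-7.

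Accessible chromatin was measured by ATAC-seq, in which the Tn5 transposase inserts adapters into open DNA, in 2 biological replicates of naive males. The flies carried w*;UAS-Unc84::2xGFP/+;R14H06-Gal4/+, so that a GFP-tagged nuclear envelope protein labelled MB nuclei, which were pulled from homogenates of 50 to 60 heads with anti-GFP beads. Flies were frozen at the time that matched 1 h after the start of courtship training, and both samples carry the same genotype and treatment, so no group could be compared with another. The study describes the R14H06 driver as highly specific to Kenyon cells and likens its domain to that of a tool that acts mainly in αβ and γ neurons, and the nuclei were pooled: a locus open in fewer Kenyon cells and a locus less open in each cell cannot be told apart. The files hold peaks that the authors called in each replicate alone, 13868 in replicate 1 and 14583 in replicate 2. Each peak has a fold enrichment, the number of fragments or cut sites over its summit (the pileup) divided by a background taken from the same library. The median pileup was 219 in replicate 1 and 216 in replicate 2, with a Poisson counting error of 6.76% and 6.80%. Among the 11705 regions with a peak in both replicates, 95% lay within 1.19-fold of the median ratio between replicates. TSS peaks of the 6 MB marker genes ey, dac, Dop1R2, Oamb, mub and prt ranked between percentile 80.3 and 98.5, and 2 of 12 marker genes of other head cells (the glial genes moody and Eaat1, at 40.6 and 28.9) had such a peak in each replicate. The glial gene repo, the photoreceptor gene ninaE and the muscle gene Mhc had none.

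Of the 6 genes, 5 had a peak within 500 bp of an annotated transcription start site (TSS) in both replicates, and lin-28 had none in either. The background is 55.9% of protein-coding genes (7803 of 13968). The 6 genes have 21 annotated TSS positions, of which 13 had a peak in both replicates and 8 had none in either replicate, so the replicates gave the same call at every position. Over all protein-coding genes 55.6% of TSS positions had a peak in both, and the members' share is near that value. The 13 positions were served by 11 regions, because TSS 1 and TSS 2 of ab lie beside one peak and TSS 2 and TSS 3 of Imp lie beside another. All 5 members with more than 1 TSS had peaks at some positions and not at others. Among the 3699 protein-coding genes with at least 2 TSS positions, 27.4% were of this kind, a share that was not matched on the number of positions. Of the 51 annotated transcripts of the 6 genes, 36 start at a TSS with a peak within 500 bp. The peak itself covered 9 of the 13 positions in both replicates. Outside their peak lay ab TSS 2, Imp TSS 3 and Syp TSS 5 in both replicates, and mamo TSS 1 in replicate 1.

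**Figure D1:**
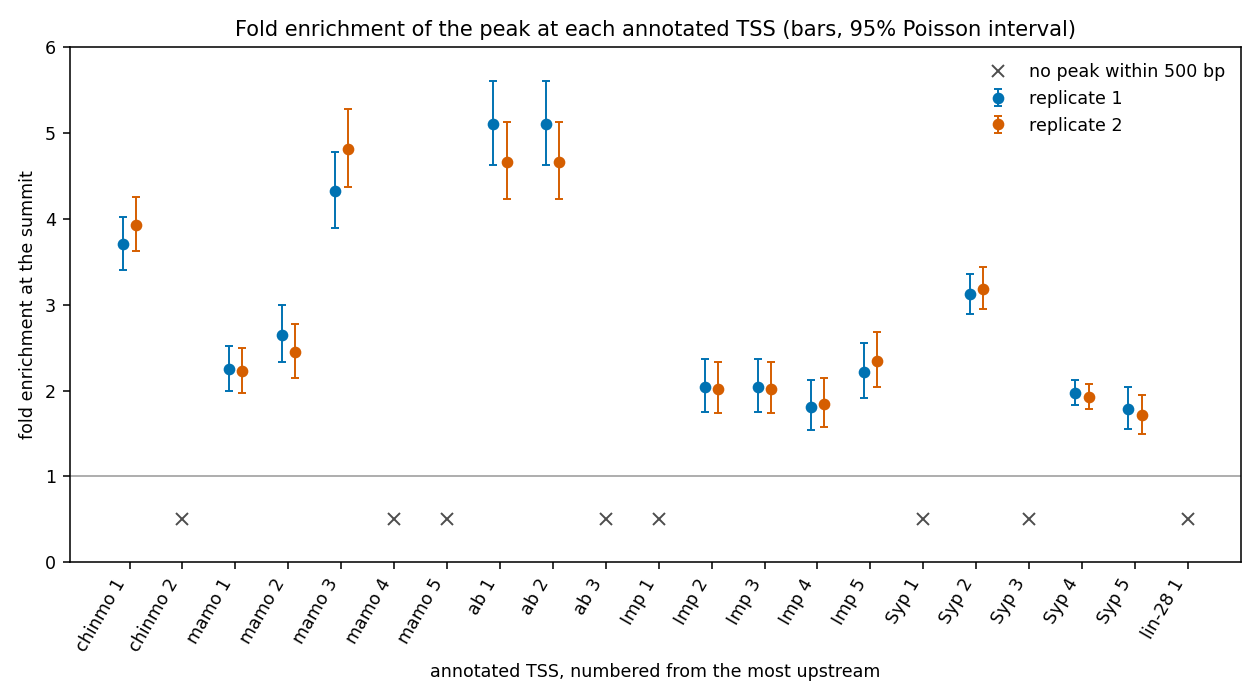
Fold enrichment (vertical axis, a ratio to background; the grey line marks 1) of the peak within 500 bp of each of the 21 annotated TSS positions of the 6 genes, numbered from the most upstream. Points are the 2 replicates, bars are exact Poisson 95% intervals of the pileup, and crosses mark the 8 positions with no peak, which include the single TSS of lin-28; ab TSS 1 and 2 share a peak, as do Imp TSS 2 and 3.

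The genes were ranked by the fold enrichment of their strongest TSS peak among the 7997 and 7995 protein-coding genes with such a peak in replicate 1 and 2. A percentile is the percentage of these genes that were lower. The BTB zinc finger genes stood highest, with ab at 96.4 ± 1.09, mamo at 93.8 ± 3.96 and chinmo at 83.3 ± 5.90 (SD, n = 2). Syp followed at 65.0 ± 5.54 and Imp at 32.4 ± 6.67 (SD, n = 2). The values of ab (97.2 and 95.6) and mamo (91.0 and 96.6) overlapped between replicates, while chinmo (79.2 and 87.5), Syp (61.0 and 68.9) and Imp (27.7 and 37.2) each kept clear of their neighbours in this order. With lin-28 counted as 0, the median of the 6 genes was 74.1 ± 5.72 (SD, n = 2). This order depended on the background. At the summits of ab and of Imp the background was the lowest of its library (82.9 in replicate 1, 88.6 in replicate 2), and that of mamo was near it (85.3 and 88.6). At the summit of Syp it was 220 and 214. Ranked by the pileup alone, Syp stood at 92.0, chinmo at 84.4, ab at 63.5, mamo at 59.4 and Imp at 12.9. Imp was thus the lowest of the 5 genes on both scales, and Syp was the highest by pileup.

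mamo and Imp lie on the X chromosome, of which males carry a single copy. The median TSS peak of X-linked genes had a fold enrichment of 2.69 and 2.55 in replicates 1 and 2, against 2.83 and 2.69 on the autosomes. Ranked among X-linked genes only, mamo stood at 97.4 and Imp at 33.6. The genes directly above and below ab in the ranking of all genes were trv and sgl (rank 271 of 7803 for ab), and those around Imp were CG10479 and CG13901 (rank 5401 for Imp).

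**Figure D2:**
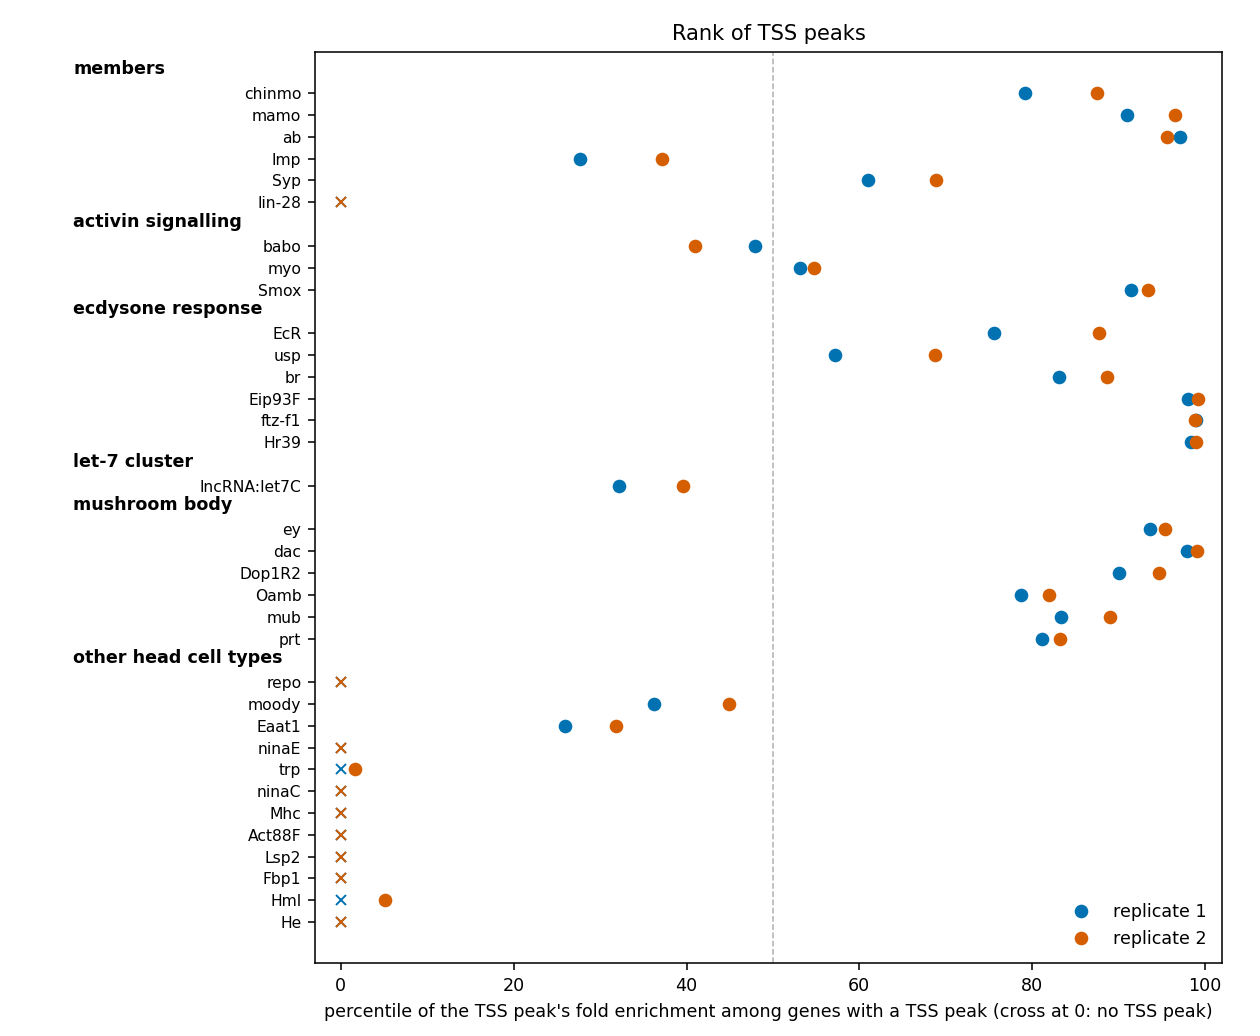
Percentile (horizontal axis) of the strongest TSS peak of each gene among protein-coding genes with a TSS peak, in replicate 1 and replicate 2, for the 6 members, the 10 genes of activin signalling, the ecdysone response and the let-7 cluster, and the cell type markers. Crosses at 0 mark genes without a TSS peak: lin-28 is the only member there, beside 8 markers of other head cells, and trp and Hml have crosses in replicate 1 alone.

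The sequences at the strongest TSS summits show what lay under the peaks compared here. Each runs from 75 bp before to 75 bp after the summit of replicate 1, 5′ to 3′ on the strand of the gene, from the RefSeq copy of the dm6 genome, and capitals mark matches to GAGAGAG or its reverse complement CTCTCTC. The windows are chr2L:1651032-1651182 (+) for chinmo, chrX:13986563-13986713 (-) for mamo TSS 3, chr2L:11210501-11210651 (+) for ab, chrX:10806835-10806985 (-) for Imp TSS 5 and chr3R:20778637-20778787 (+) for Syp TSS 2.
chinmo TSS 1 summit: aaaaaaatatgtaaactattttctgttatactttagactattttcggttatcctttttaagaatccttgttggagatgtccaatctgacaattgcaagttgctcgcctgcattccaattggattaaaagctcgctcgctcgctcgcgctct
mamo TSS 3 summit: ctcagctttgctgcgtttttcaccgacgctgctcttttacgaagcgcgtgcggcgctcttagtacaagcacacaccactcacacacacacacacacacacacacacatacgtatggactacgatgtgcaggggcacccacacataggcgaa
ab TSS 1 summit: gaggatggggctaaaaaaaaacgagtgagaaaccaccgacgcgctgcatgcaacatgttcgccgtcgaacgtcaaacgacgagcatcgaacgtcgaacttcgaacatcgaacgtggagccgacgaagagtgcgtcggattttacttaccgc
Imp TSS 5 summit: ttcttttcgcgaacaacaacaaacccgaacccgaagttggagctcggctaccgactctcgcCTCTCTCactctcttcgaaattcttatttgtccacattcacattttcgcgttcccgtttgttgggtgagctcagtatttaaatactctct
Syp TSS 2 summit: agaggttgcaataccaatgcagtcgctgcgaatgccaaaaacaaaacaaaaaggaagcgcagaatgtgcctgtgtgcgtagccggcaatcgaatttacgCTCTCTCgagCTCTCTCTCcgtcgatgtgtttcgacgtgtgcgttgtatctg

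The GA repeat GAGAGAG was searched as exact letters on both strands within 100 bp of each summit, so shorter GA runs were not counted. It was present in 11 of the 49 shared regions of the 6 loci around the summits of replicate 1 (22.4%) and in 13 around those of replicate 2 (26.5%). Among all 11705 shared regions the shares were 10.1% and 9.96%. No test was made of this difference. The regions with the repeat include some at start sites of other genes. These were sesB and Ant2 beyond Imp and sif and CG46320 beyond lin-28 in both replicates, and sif at the end of lin-28 in replicate 1. In replicate 2 they also include a region beyond mamo, inside AMPdeam. At a member's own TSS, the repeat was found around both replicates' summits for chinmo TSS 1, mamo TSS 1, Imp TSS 5 and Syp TSS 2, and around 1 replicate's summit for mamo TSS 2 and Syp TSS 5. Several of these matches overlap one another, as in the longer run at Syp TSS 2. The DNA replication-related element TATCGATA occurred in 1 region (at the TSS of the nested gene CG31195) and 0 regions by replicate, against 3.26% and 3.09% of all shared regions. The E-box CACGTG occurred in 0 and 1, against 4.39% and 4.38%, and the cAMP response element TGACGTCA in none, against 0.564% and 0.427%.

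Start sites with and without a peak are set side by side in the next sequences, which run from 100 bp before the TSS through the 30 bp from it on. chinmo TSS 1 (chr2L:1651158-1651287, +) and Imp TSS 5 (chrX:10806827-10806956, -) had peaks, and Imp TSS 1 (chrX:10824248-10824377, -), chinmo TSS 2 (chr2L:1667747-1667876, +), mamo TSS 5 (chrX:13933314-13933443, -) and lin-28 TSS 1 (chr3L:5654581-5654710, +) had none. Capitals mark the GA repeat on either strand and the initiator letters TCAGT where their A lies within 10 bp of the TSS. Over all 21 such windows the GA repeat occurred in 2 of 13 with a peak and in 1 of 8 without, and these 3 windows are all shown.
chinmo TSS 1, peak: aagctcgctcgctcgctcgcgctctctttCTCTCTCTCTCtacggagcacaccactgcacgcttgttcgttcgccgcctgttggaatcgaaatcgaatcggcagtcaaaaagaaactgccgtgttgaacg
Imp TSS 5, peak: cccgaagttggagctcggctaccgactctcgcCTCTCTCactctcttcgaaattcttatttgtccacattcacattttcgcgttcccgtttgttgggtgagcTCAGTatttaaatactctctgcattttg
Imp TSS 1, no peak: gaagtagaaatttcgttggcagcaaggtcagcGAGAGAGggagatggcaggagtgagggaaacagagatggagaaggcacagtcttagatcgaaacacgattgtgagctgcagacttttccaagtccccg
chinmo TSS 2, no peak: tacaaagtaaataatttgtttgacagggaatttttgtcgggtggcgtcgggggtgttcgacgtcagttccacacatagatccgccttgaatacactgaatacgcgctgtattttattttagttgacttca
mamo TSS 5, no peak: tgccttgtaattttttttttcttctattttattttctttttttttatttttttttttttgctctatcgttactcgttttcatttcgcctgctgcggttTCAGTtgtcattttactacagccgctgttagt
lin-28 TSS 1, no peak: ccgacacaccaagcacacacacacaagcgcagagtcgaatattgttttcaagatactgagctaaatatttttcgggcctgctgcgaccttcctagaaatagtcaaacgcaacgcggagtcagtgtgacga

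The initiator letters were found at 2 of the 21 TSS positions, mamo TSS 5 without a peak and Imp TSS 5 with one, against 14.2% of 19276 protein-coding TSS positions. The GC content of the same windows had a median of 53.1% over the 13 positions with a peak (33.8% to 57.7%) and 39.2% over the 8 without (27.7% to 52.3%), ranges that overlap.

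chinmo (FBgn0086758, chr2L:1651258-1704682, + strand, 53.4 kb) encodes a BTB zinc finger factor whose level sets early against late Kenyon cell fates. Its first TSS, used by 4 of 6 transcripts, was covered by a region of 2183 bp. The fold enrichment there was 3.71 (95% interval 3.41 to 4.03) in replicate 1 and 3.93 (3.62 to 4.25) in replicate 2, and the summits lay 151 and 125 bp upstream of the TSS. TSS 2, 16589 bp further in and used by the other 2 transcripts, had no peak: the nearest was 1900 and 1903 bp away. The strongest region of the locus was not at a TSS. It lay in the intron between both start sites, at chr2L:1662403-1663888, with its summit 11894 bp into the gene in replicate 1. Its fold enrichment was 4.36 (4.08 to 4.66) and 4.89 (4.59 to 5.21), with pileups of 900 and 986. This was 1.18-fold (1.06 to 1.31) and 1.25-fold (1.13 to 1.38) that of the TSS peak, higher in both replicates. The region was picked as the strongest by these same values, and the intervals do not allow for that choice.

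A second intronic region of chinmo, 6050 bp into the gene, reached 3.08 and 3.13, or 0.829 (0.719 to 0.952) and 0.796 (0.692 to 0.912) of the TSS peak. A further region 2213 bp upstream of the TSS had 2.34 and 2.18. The other shared regions in the gene lay in introns after TSS 2 and over a coding exon near its end, and none exceeded 2.46 in either replicate, apart from the region at the TSS of the neighbour cpb, the gene of a capping protein subunit, which covers the last 429 bp of chinmo and had 3.39 and 3.32. In all, the chinmo locus held 13 peaks in replicate 1 and 11 in replicate 2, which gave 11 shared regions, 8 of them at no TSS. The sequence around the strong intronic summit (chr2L:1663077-1663227, +), in the same form as the TSS summits above, is shown with those of the strongest intronic regions of mamo (chrX:13964124-13964274, -) and Imp (chrX:10802183-10802333, -), to which the next paragraphs refer.
chinmo intron: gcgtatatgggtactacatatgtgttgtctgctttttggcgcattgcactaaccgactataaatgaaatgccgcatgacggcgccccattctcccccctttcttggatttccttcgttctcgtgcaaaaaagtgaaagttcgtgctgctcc
mamo intron: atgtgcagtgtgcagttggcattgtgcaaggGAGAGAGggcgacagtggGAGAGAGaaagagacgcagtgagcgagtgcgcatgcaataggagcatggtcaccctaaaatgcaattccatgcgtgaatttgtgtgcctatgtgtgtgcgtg
Imp intron: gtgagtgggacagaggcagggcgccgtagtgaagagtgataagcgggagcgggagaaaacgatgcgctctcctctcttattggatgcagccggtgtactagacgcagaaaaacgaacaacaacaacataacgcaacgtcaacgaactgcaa

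**Figure D3:**
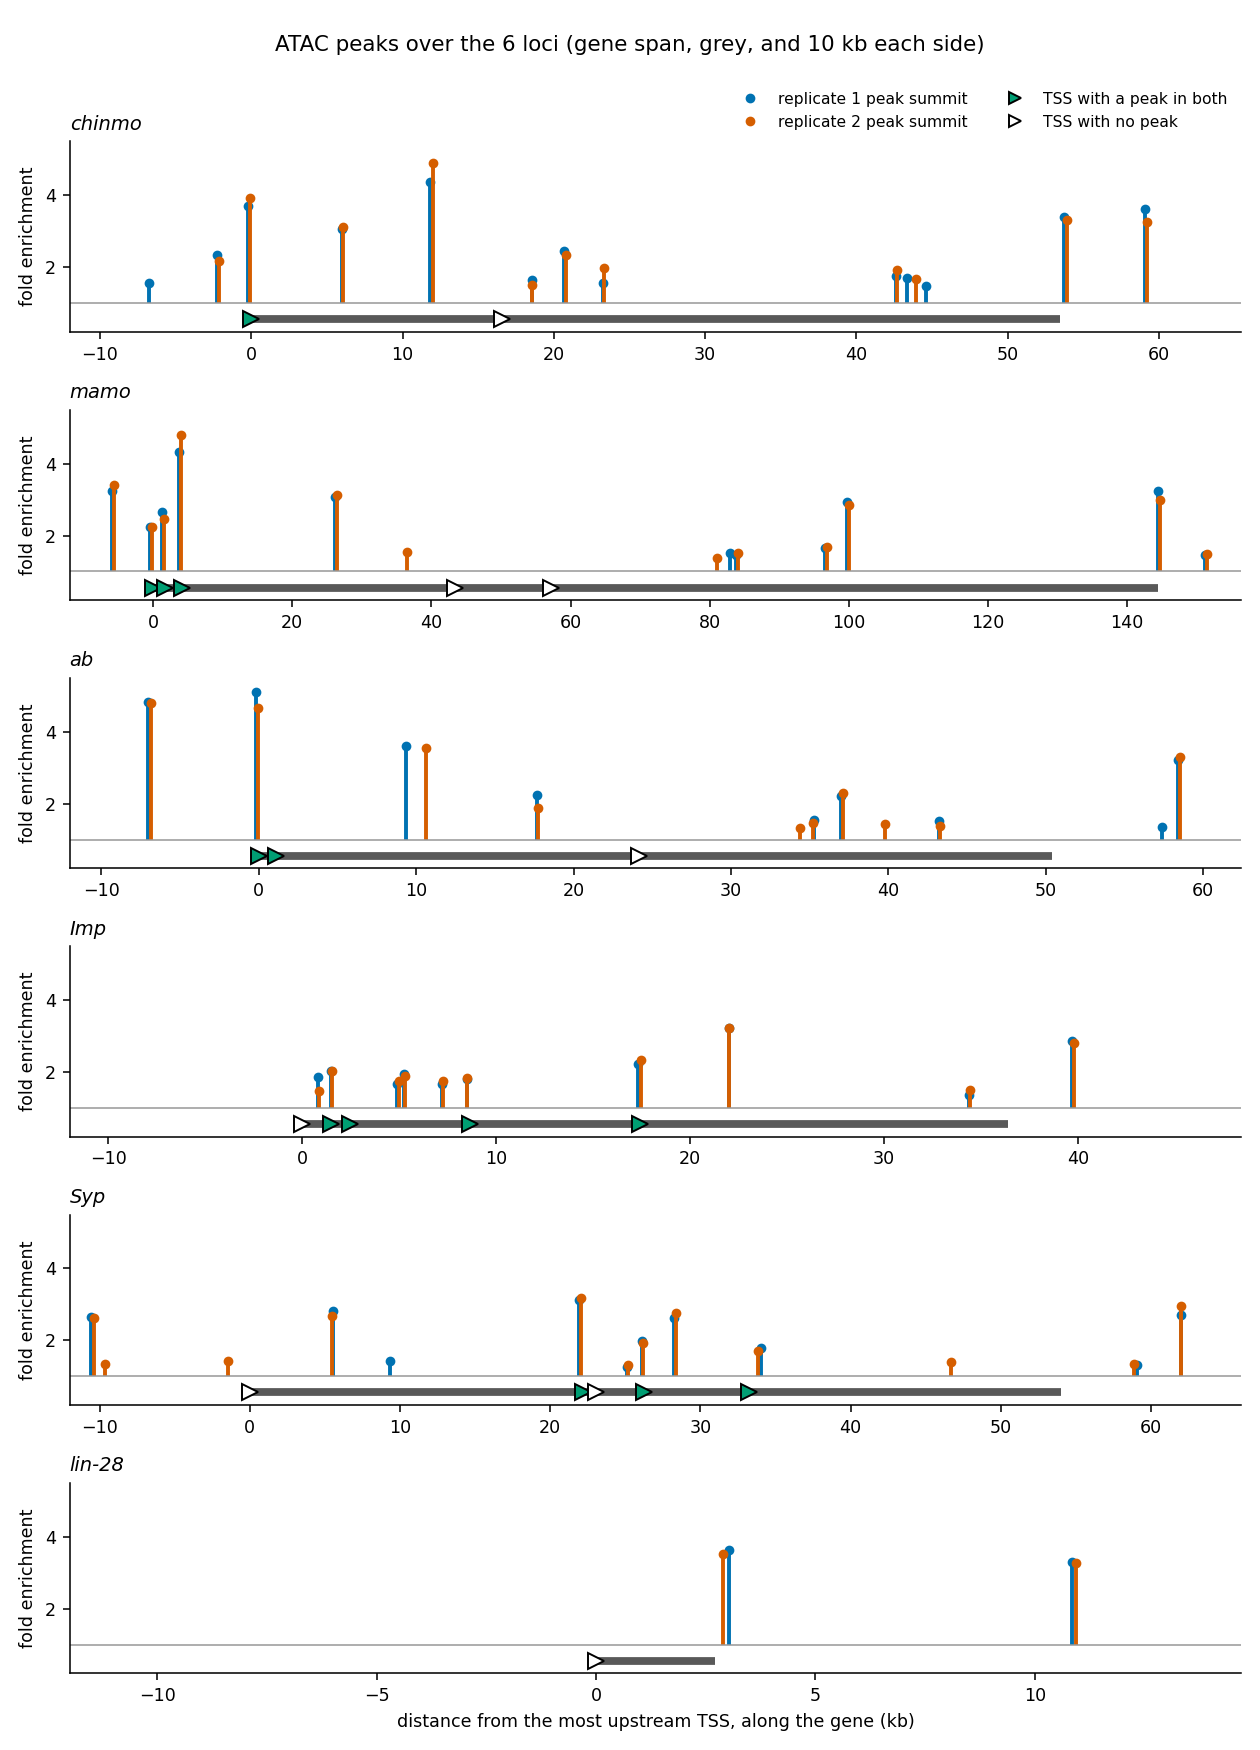
Fold enrichment (vertical axis) of the strongest peak of each region against the distance of its summit from the most upstream TSS, along the direction of transcription in kb (horizontal axis), for the 6 loci in replicates 1 and 2. Grey bars are the gene spans and triangles the TSS positions, filled where both replicates have a peak; in chinmo and Imp an intronic region without a TSS rises above every TSS peak of the gene, and in lin-28 the only summits lie beyond the end of the gene.

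mamo (FBgn0267033, chrX:13846116-13990527, - strand, 144 kb) encodes a BTB zinc finger factor that is required for the α'β' fate. Its 5 TSS positions fall into a cluster of 3 within 4085 bp and 2 more inside the gene. The peaks of the cluster were unequal. TSS 1 had a fold enrichment of 2.25 and 2.22, TSS 2 of 2.65 and 2.45, and TSS 3 of 4.32 (3.90 to 4.79) and 4.81 (4.37 to 5.29). TSS 3 exceeded TSS 1 by 1.92-fold (1.65 to 2.25) and 2.16-fold (1.86 to 2.53), and TSS 2 by 1.63-fold (1.39 to 1.92) and 1.96-fold (1.67 to 2.31). The pileups differed less, with 372 and 430 at TSS 3, 257 and 238 at TSS 2, and 285 and 282 at TSS 1. The background was 85.3 and 88.6 at TSS 3, 96.3 and 96.5 at TSS 2, and 126 in each replicate at TSS 1. The region at TSS 1 also holds the TSS of the noncoding RNA gene lncRNA:CR44655, so its signal cannot be given to one gene. TSS 4 and TSS 5, 43451 and 57184 bp into the gene with 1 transcript each, had no peak within 7017 bp and 20750 bp in either replicate.

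Inside mamo, 2 intronic regions without a TSS stood out in both replicates. One lay 26328 bp into the gene, with 3.06 and 3.12, which was 0.708 (0.601 to 0.832) and 0.650 (0.556 to 0.756) of the peak at TSS 3. Its summit sequence, the mamo intron above, carries 2 GA repeats. The other was 99894 bp into the gene, spanned 2283 bp, and had 2.94 and 2.85. Between them lay 2 shared regions, neither above 1.69. Over its whole span mamo held 0.554 shared regions per 10 kb, against a median of 0.925 over the 1020 genes of at least 20 kb, a length that was chosen after the data were seen. Shared regions of 3.23 and 2.99 at the gene's end and of 3.25 and 3.41 upstream of it lay at the start sites of AMPdeam and of ben, the genes of AMP deaminase and of a ubiquitin-conjugating enzyme.

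ab (FBgn0264442, chr2L:11210678-11261080, + strand, 50.4 kb) encodes Abrupt, the third BTB zinc finger factor and a target of let-7 in Kenyon cells. Its TSS 1 carried the strongest TSS peak of the 6 genes in replicate 1, with 5.10 (4.63 to 5.61), and had 4.66 (4.23 to 5.13) in replicate 2, where mamo TSS 3 had 4.81. Pileups were 427 and 417. TSS 2 lies 1119 bp downstream and lay outside the same peak, 169 and 296 bp beyond its edge. TSS 3, 24173 bp into the gene, had its nearest peak 6221 and 6274 bp away. A broad intronic region of 2999 bp starting 8214 bp into the gene had 3.60 and 3.54, or 0.705 (0.616 to 0.807) and 0.759 (0.663 to 0.869) of the TSS peak. By pileup it was not lower, with 444 and 453 over a background of 123 and 127. Its summit was called at different places, 9387 bp into the gene in replicate 1 and 10567 bp in replicate 2. Of the 8 shared regions of the locus, 5 were intronic without a TSS and 2 belonged to neighbours: Ca-beta, the gene of the calcium channel β subunit, with 4.83 and 4.80, and the pair cana and cmet, with 3.21 and 3.30.

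Imp (FBgn0285926, chrX:10787869-10824277, - strand, 36.4 kb) encodes the fly relative of the IGF2 mRNA-binding proteins. Of its 5 start sites 4 had a peak within 500 bp, and 11 of its 12 transcripts start there. Within 250 bp it had 3, as did mamo and Syp. All of its TSS peaks were low. TSS 5, used by 4 transcripts, had 2.22 (1.91 to 2.56) and 2.34 (2.04 to 2.68), TSS 2 and TSS 3 shared a peak of 2.04 and 2.02, and TSS 4 had 1.81 and 1.84. TSS 3 lay outside the shared peak, 390 and 420 bp from it. The ratio of TSS 5 to TSS 4 was 1.22 (0.983 to 1.53) and 1.27 (1.03 to 1.57), so their order did not hold beyond counting error in replicate 1. TSS 1 had no peak within 500 bp, and the nearest was 603 and 786 bp away. The strongest region of Imp was intronic, 22019 bp into the gene and 3840 bp from the nearest of its start sites, with 3.22 (2.85 to 3.62) and 3.21 (2.85 to 3.61). That was 1.45-fold (1.20 to 1.76) and 1.37-fold (1.15 to 1.65) the peak at TSS 5, again for a region picked as the strongest. Among the 22 shared intronic regions without a TSS in the 6 loci, this one and that of chinmo were the only 2 with a fold enrichment above every TSS peak of their gene in both replicates. By pileup 5 were above, with 2 intronic regions of ab and 1 of Syp beside these.

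Imp was also the most densely covered of the 5 long members. It held 2.47 shared regions per 10 kb of gene, above 97.6% of genes of at least 20 kb, followed by chinmo with 1.68 (82.2%), ab with 1.19 (62.9%), Syp with 1.11 (59.2%) and mamo with 0.554 (30.5%). These densities include regions at start sites of other genes that reach into the span, those of cpb in chinmo, CG31195 in Syp and AMPdeam in mamo. Shared regions took up 15.1% of the Imp span, 14.3% of ab, 11.5% of Syp, 10.8% of chinmo and 3.38% of mamo, against a median of 7.46% over those genes. All 10 regions of the Imp locus were shared. One lay beyond its end, at the start sites of sesB and Ant2, the genes of the ADP/ATP carriers, with 2.87 and 2.80.

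Syp (FBgn0038826, chr3R:20756729-20810726, + strand, 54.0 kb) encodes the fly relative of SYNCRIP. Of the 5 members with TSS peaks it was the only one whose most used start site in the annotation had none: TSS 1, where 7 of 20 transcripts begin, had no peak within 4915 bp in replicate 1, and in replicate 2 the nearest was a weak peak of 1.43 at 1377 bp. The strongest TSS peak was at TSS 2, 22166 bp into the gene, with 3.12 (2.89 to 3.36) and 3.19 (2.95 to 3.44) and pileups of 690 and 686. TSS 4, used by 3 transcripts, had 1.97 (1.83 to 2.12) and 1.92 (1.78 to 2.08), and TSS 5, used by 6, had 1.78 (1.55 to 2.04) and 1.71 (1.49 to 1.95). TSS 5 lay outside its peak, which began 187 and 211 bp downstream of it and had its summits 804 and 528 bp downstream. TSS 2 stood 1.58-fold (1.42 to 1.76) and 1.66-fold (1.49 to 1.85) above TSS 4. By fold enrichment TSS 4 and TSS 5 could not be ordered, with ratios of 1.11 (0.949 to 1.30) and 1.13 (0.967 to 1.32). The pileup at TSS 4, 700 and 655, was like that at TSS 2, over a background of 354 and 340. At TSS 5 the pileup was 208 and 216 over a background of 116 and 126, so by pileup TSS 4 stood higher. TSS 3 lay 784 and 740 bp from the peak of TSS 2.

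Just past TSS 4, an intronic region without a TSS 28259 bp into the gene had 2.61 and 2.75. It exceeded TSS 4 by 1.32-fold (1.20 to 1.47) and 1.43-fold (1.29 to 1.58) and reached 0.837 (0.756 to 0.927) and 0.863 (0.780 to 0.955) of TSS 2. Its pileup, 850 and 861, was higher than the 690 and 686 of TSS 2, over a background of 325 and 312. Between TSS 1 and TSS 2 lies the nested gene CG31195, whose start site had 2.82 and 2.68. Of the 14 regions of the Syp locus 6 were found in 1 replicate only, the most of any member, and these had a fold enrichment between 1.32 and 1.43.

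lin-28 (FBgn0035626, chr3L:5654681-5657384, + strand, 2.70 kb) is the shortest member and has 1 transcript. No peak lay within 500 bp of its TSS, and the nearest was 2017 and 2026 bp away. That region, chr3L:5656698-5659152, covers 687 bp of the end of lin-28, with its summits beyond the gene at a TSS of the neighbour sif, a Rac exchange factor gene. It had 3.63 (3.36 to 3.91) and 3.52 (3.25 to 3.81). The only other region within 10 kb, with 3.29 and 3.26, also lay at start sites of sif and of CG46320. No peak of the series was called at a summit pileup under 113 (replicate 1) or 120 (replicate 2), so a weaker opening at the lin-28 TSS was not detectable at this depth. These are minima over the whole series, and the pileup needed at the lin-28 TSS itself is not known. The background at the nearest region was 185 and 175, against a lowest value of 82.9 and 88.6 in the series.

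Over the 6 loci together, each replicate had 58 peaks, which made 63 regions. Of these 49 were shared, and 14 were found in 1 replicate only (6 in replicate 1, 8 in replicate 2). The unshared regions were narrow and weak, with a median width of 142 bp against 859 bp and a fold enrichment of at most 1.55. Of the 49 shared regions 11 lay at a TSS of the member, 11 at a TSS of another gene only and 27 at no TSS, of which 22 were intronic. Regions at a TSS made up 44.9% of these and 57.3% of all shared regions. Between replicates 47 of the 49 stayed within the spread that holds 95% of all shared regions. The exceptions were weak intronic regions, one of chinmo with 1.57 and 1.98 and one of Imp beside TSS 1 with 1.87 and 1.47.

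**Figure D4:**
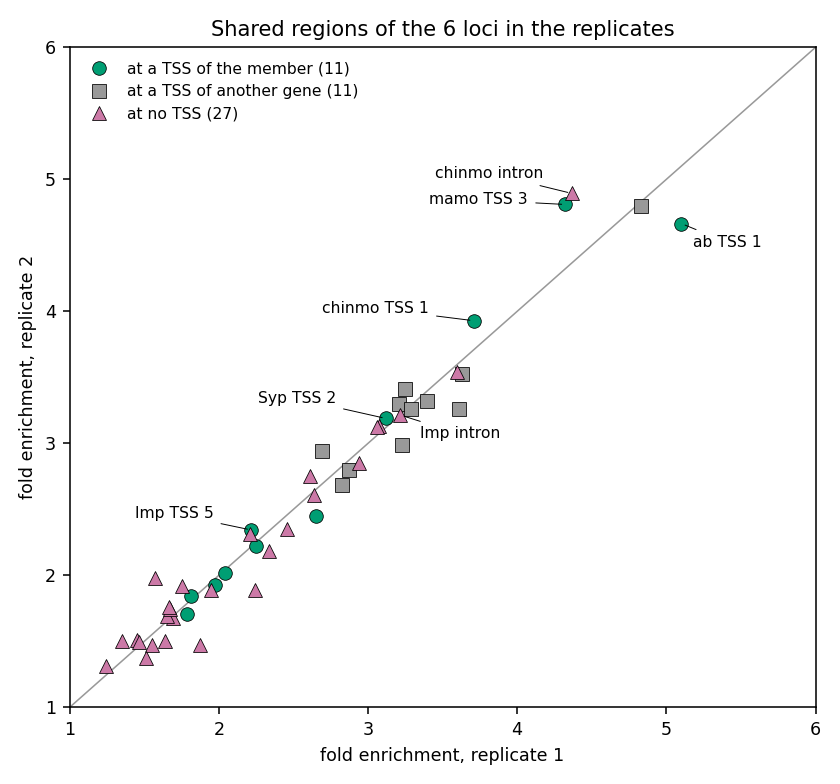
Fold enrichment in replicate 2 (vertical axis) against replicate 1 (horizontal axis) for the 49 shared regions of the 6 loci, with the line of equal values. Symbols separate the 11 regions at a TSS of the member, the 11 at a TSS of another gene and the 27 at no TSS; the points follow the line over the range from 1.24 to 5.10 in replicate 1, and the 2 farthest from it for their size lie below a fold enrichment of 2.

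Signals that act on these genes were described by a list of 10: babo, myo and Smox of activin signalling, EcR, usp, br, Eip93F, ftz-f1 and Hr39 of the response to the steroid ecdysone, and the host transcript of the let-7 cluster. The glial ligand Myo and the receptor Babo lower Imp in older neuroblasts, and ecdysone acting through EcR and Usp drives remodelling of γ neurons and expression of let-7. Each of the 10 genes had a peak at a TSS in both replicates, against 55.9% of protein-coding genes. That share was not matched on the number of TSS positions, the let-7 host transcript is noncoding, and the list was chosen with earlier results known. The median percentile was 83.8, from 35.9 to 98.9. The nuclear receptor genes ftz-f1 (5.73 and 5.49), Hr39 (5.48 and 5.56) and the ecdysone-induced Eip93F (5.36 and 5.77) all lay above the TSS peaks of the 6 members. Their intervals overlapped that of ab in replicate 1, however. In replicate 2 those of ftz-f1 and Hr39 overlapped that of mamo TSS 3, and that of ftz-f1 also overlapped that of ab. EcR had 3.57 and 3.94, with peaks at each of its 4 TSS positions, and br had 3.86 and 4.02, with peaks at 2 of 9. Smox, the gene of the activin Smad, had 4.36 and 4.39, while myo had 2.88 and 2.79 and babo 2.75 and 2.43. The let-7 host transcript had the lowest mean percentile by fold enrichment, with pileups of 667 and 679 over a background of 284 and 283. Its fold enrichment was 2.35 (2.17 to 2.53) and 2.397 (2.22 to 2.58), and its intervals overlapped those of Imp in both replicates. The part of other cells in any of these values was not tested beyond the marker genes given above.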

How the data were processed

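Reads were trimmed by the authors (Trimmomatic 0.39). They aligned them to dm6 with Bowtie2 2.4.1, shifted them for the Tn5 offset, removed duplicates, multiply mapped, mitochondrial and scaffold reads, and called peaks in each replicate with MACS2 2.1.2 (q of 0.01). Fold enrichment, a ratio, is the authors' value at each summit, and significance was deposited as −log10 of p and of q. The score column was deposited as well and was not used, nor was any read total. Pileup and background were solved from the fold enrichment and the Poisson p, and each interval is the exact Poisson 95% range of that pileup with the background held fixed, or an exact binomial one for a ratio within a replicate. They cover counting error only, and do not allow for the choice of the compared peaks, some of which were picked as the strongest. Accessible DNA around a summit raises this background and lowers the fold enrichment.

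Peaks overlapping a gene span plus 10 kb were taken, and peaks of the replicates sharing at least 1 bp were merged. The TSS peak was the row of highest fold enrichment within 500 bp of a TSS of Ensembl release 115. The named genes were the 6 members, their signalling partners, cell type markers, rank neighbours and genes whose TSS lay at a region. Members and lists were chosen with earlier results of these data known. With 1 group of 2 replicates no test was made. Scripts (Python 3.11.15, scipy 1.17.1, pandas 2.3.3) were tested on simulated data. All peaks lay inside the chromosomes of the RefSeq copy of the assembly, in which 99.9% of annotated start codons read ATG.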

Additional observations from a re-analysis of the deposited data

How the results depend on the processing

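Of 109 recomputed values under 13 settings, 79 stayed within the replicate spread or 1.5 times the count and 30 moved. The 79 include values that could hardly move. A percentile or peak count per locus from 1 replicate always lies within the spread of the 2 replicates. The percentile of lin-28 was fixed while it had no TSS peak. These values say nothing about how stable the results are. With the search limited to each gene's most upstream TSS, 3 of the 6 genes had a TSS peak in both replicates (chinmo, mamo and ab) and the median percentile fell to 16.0. Ranked by −log10 q it was 80.9 and by summit pileup 61.4. Leaving out either replicate gave 5 genes, 13 TSS positions, 58 peaks and a median between 70.1 and 78.2. Ranking within the chromosome arm, chosen after seeing the data, gave 73.3. A TSS window of 250 or 1000 bp gave 11 or 15 positions, and 9 were covered by a peak itself. Shared regions numbered 39 over the gene spans alone, 67 with 20 kb each side, and 42 both with −log10 q of at least 5 and with reciprocal overlap of 50%. No paired analysis was possible because the series has 1 group. With 2 replicates and no read totals, weak regions and small differences between start sites cannot be resolved.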
